A study of Mus musculus with 4 samples.

Results

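Most stretches of the mouse liver genome that are dense in CpGs are free of methylation, and the exceptions are described here. They are 565 autosomal windows of 500 bp with high methylation in all 4 livers examined, of 19118 windows with enough CpG sites to be judged (2.96%). A window was chosen by its methylation level: it held at least 16 cytosines measured in every mouse (common cytosines, the plus and minus strands of a CpG being separate sites), and their mean methylation was above 80% in each mouse. The levels of the windows are thus given as a description. Autosomes, a coverage of at least 10 reads in each mouse and the minimum of 16 cytosines were required of all 19118 windows alike. The position of a window in genes and the methylation of its neighbouring bins played no part in its choice, though some neighbouring bins were chosen windows themselves.

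Enhanced reduced representation bisulfite sequencing (ERRBS), which sequences bisulfite-treated restriction fragments, here cut with MspI at CCGG as the labels state, was carried out on the livers of 4 male mice aged 6 to 8 weeks on a normal diet. The Mixed mice, Mixed-1 and Mixed-2, had an undefined background that includes C57BL/6J, whereas the other pair, B6-1 and B6-2, were C57BL/6. Values of single mice are given in this order throughout. The strains were kept at different institutions, so background and housing cannot be told apart, and each mouse gave 1 library of whole liver, in which the methylation of hepatocytes and other cells cannot be separated. The bisulfite signal also does not separate methylcytosine from hydroxymethylcytosine, and the files hold no expression values against which the tissue label could be checked.

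In mammals a CpG that is methylated is copied as methylated at each cell division by the maintenance methyltransferase Dnmt1, and methylated cytosines are lost over evolution by deamination to thymine. CpGs therefore stay dense mainly in CpG islands, which usually lie at transcription start sites (TSSs) and are kept unmethylated. Dense CpGs that are methylated in adult tissue are known from the bodies of transcribed genes, from repeats and from the promoters of genes that act only in the germline. Within coding exons the amino acid sequence also holds CpGs in place.

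The 3 windows with the most common cytosines and the 3 windows nearest to a TSS are shown as sequence, because they show how dense the methylated CpGs were and how close to a start they came. Each line gives the plus strand 5′ to 3′ of a stretch of the window, and capitals mark the positions read in all 4 mice (C for a cytosine of the plus strand, G for a cytosine of the minus strand). The sequences are from RefSeq's GRCm38 assembly, the build of the files. The first is in the last exon of Dact1 (chr12:71318168-71318467), the second lies just outside the last exon of Pias4 and counts as intergenic (chr10:81153544-81153843) and the third is in a coding exon of Shroom3 (chr5:92942111-92942410). The others lie just before the TSS of Rpl39l (chr16:10170000-10170199) and across those of Hormad1 (chr3:95559501-95559700) and Timm8a2 (chr14:122034657-122034956).
Dact1: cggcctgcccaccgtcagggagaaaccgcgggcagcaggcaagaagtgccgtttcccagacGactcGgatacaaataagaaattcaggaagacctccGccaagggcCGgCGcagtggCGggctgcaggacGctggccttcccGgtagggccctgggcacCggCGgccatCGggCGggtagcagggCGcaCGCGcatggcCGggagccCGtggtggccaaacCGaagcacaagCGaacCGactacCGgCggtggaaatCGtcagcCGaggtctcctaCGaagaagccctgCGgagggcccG
Pias4: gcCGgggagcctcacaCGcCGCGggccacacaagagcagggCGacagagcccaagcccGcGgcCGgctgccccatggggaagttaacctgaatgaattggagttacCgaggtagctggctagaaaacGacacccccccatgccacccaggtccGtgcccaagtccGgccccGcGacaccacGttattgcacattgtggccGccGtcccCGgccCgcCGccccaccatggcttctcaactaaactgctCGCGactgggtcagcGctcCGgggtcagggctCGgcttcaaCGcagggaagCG
Shroom3: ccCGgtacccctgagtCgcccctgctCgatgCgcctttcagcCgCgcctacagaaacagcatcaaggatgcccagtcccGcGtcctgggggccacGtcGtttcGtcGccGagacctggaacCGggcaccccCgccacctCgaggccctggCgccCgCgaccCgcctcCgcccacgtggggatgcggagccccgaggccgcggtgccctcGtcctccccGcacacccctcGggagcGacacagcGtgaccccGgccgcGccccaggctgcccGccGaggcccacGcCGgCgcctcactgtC
Rpl39l: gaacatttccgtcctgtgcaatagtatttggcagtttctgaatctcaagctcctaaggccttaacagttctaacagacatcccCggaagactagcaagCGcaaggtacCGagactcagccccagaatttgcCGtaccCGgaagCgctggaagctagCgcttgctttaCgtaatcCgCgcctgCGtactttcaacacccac
Hormad1: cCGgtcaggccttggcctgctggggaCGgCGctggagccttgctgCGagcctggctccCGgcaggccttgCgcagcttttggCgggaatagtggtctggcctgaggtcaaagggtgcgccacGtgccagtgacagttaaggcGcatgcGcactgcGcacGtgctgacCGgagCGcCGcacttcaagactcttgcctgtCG
Timm8a2: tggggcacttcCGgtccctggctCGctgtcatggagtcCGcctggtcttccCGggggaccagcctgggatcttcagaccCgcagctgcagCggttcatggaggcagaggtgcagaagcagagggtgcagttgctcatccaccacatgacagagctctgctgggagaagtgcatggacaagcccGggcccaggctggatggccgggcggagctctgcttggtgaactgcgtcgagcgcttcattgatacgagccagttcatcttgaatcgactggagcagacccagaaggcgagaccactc
The Dact1 stretch held 32 CpGs and 46 common cytosines, with a mean methylation of 94.9% and 95.4% in the Mixed mice and 96.9% and 95.3% in the B6 mice. The Hormad1 stretch held 17 CpGs and 25 common cytosines, at 89.2%, 92.4%, 91.0% and 90.8% in the same order.

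The windows held 11663 common cytosines of 8730 CpGs, with a median of 18 cytosines and a maximum of 58. Their mean methylation was 90.1% and 90.8% in the Mixed mice and 90.8% and 90.8% in the B6 mice. Many lay well inside the threshold, and 262 windows (46.4%) were above 90% in each mouse and 32 were above 95%. The range over the 4 mice had a median of 2.81 percentage points, was under 5 points in 490 windows (86.7%) and was over 10 points in 5 windows. The median coverage of a window's cytosines, taken as the median over windows, was 39.5 reads and 44 in the Mixed mice and 54 and 53 in the B6 mice. In unmethylated windows (below 20% in each mouse, 17838 windows) it was 46, 50, 72 and 65 reads. Coverage was thus lower in the methylated windows in 4 of 4 mice (p = 0.13 by an exact sign test, two-sided, the lowest value that 4 mice allow), and its part in the results was not tested.

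**Figure D1:**
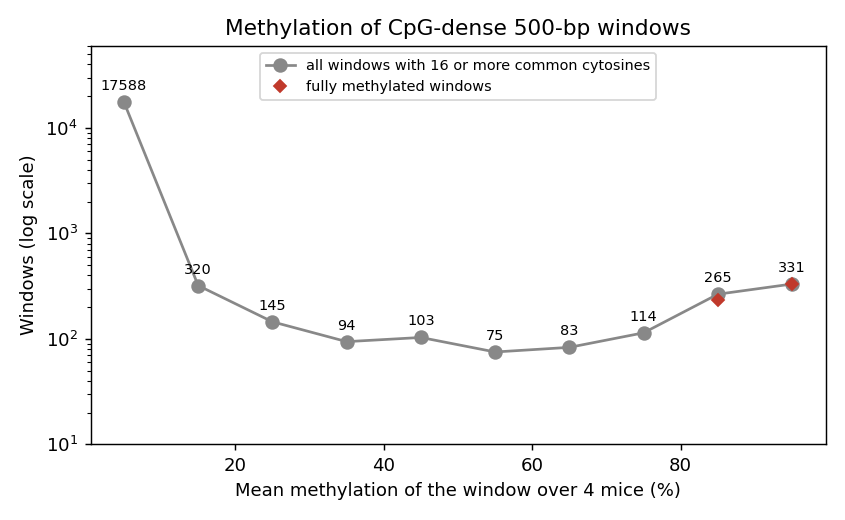
Number of CpG-dense windows (vertical axis, log scale) by their mean methylation over the 4 mice in percent (horizontal axis, steps of 10 points). Grey circles are all 19118 windows and red diamonds the fully methylated ones: 17588 windows lay below 10%, 75 between 50% and 60%, and 331 above 90%, all of these fully methylated.

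The choice was sharp at its edge, where levels lie close together. Just inside, the lowest mouse was at 80.02% for a window of Ackr3, at 80.06% for Calhm2 and at 80.46% for Rxfp2. Just outside, the lowest mouse was at 79.91% for Cntnap1, at 79.89% for Tex45 and at 79.88% for Col11a2. The number of windows between the classes was 715, and of these 26 were above 80% in 3 mice, 22 in 2 mice and 32 in 1 mouse.

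Most fully methylated windows were exonic and lay more than 1000 bp from a TSS. A window was called exonic where at least 50% of its common cytosines lay in an exon of any RefSeq transcript, and 414 windows (73.3%, 95% exact binomial interval 69.4 to 76.9%) were exonic, 70 intronic and 81 intergenic. Among all 19118 windows 61.5% were exonic, and among unmethylated windows 61.0%. The share in coding sequence differed more: 390 windows (69.0%) had at least 50% of their cytosines there, against 20.2% of all windows and 17.5% of unmethylated ones. Both of these sets lay mostly within 1000 bp of a TSS (84.4% and 88.9%). Unmethylated windows over 2000 bp from any TSS came closer in coding share, with 31.2% in coding sequence and 41.4% exonic. Of the windows between the classes, 49.2% were in coding sequence. The intervals cover counting error only, since the windows counted are those of a single genome and neighbouring windows share genes. Reads are also not independent molecules, which the intervals leave out.

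The exons concerned were rarely first exons. Of the 404 windows in an exon of a curated transcript, 233 (57.7%) were in an internal exon, 149 (36.9%) in the last, 12 (2.97%) in the first and 10 (2.48%) in the only exon. Of all windows in curated exons, 73.6% were in the first, and of windows between the classes 16.5%. Of unmethylated windows over 2000 bp from any TSS it was 1.40%, but their distance rule leaves out most first exons, so no conclusion is drawn from it. The exons were long, with a median of 1086 bp against 441 bp over all such windows, and 210 of the 404 (52.0%) were in exons of over 1000 bp. Among the 1194 unmethylated windows over 2000 bp from any TSS, too, the median exon was 1187 bp and 58.3% of exonic windows were in the last exon.

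The median distance from the centre of a window to the nearest TSS was 9161 bp (quartiles 3929 and 20178 bp), and to the nearest TSS of a curated transcript 14142 bp. Over all windows it was 239 bp. Within 1000 bp of a TSS lay 52 fully methylated windows (9.20%, 95% exact binomial interval 6.95 to 11.9%), 35 of them by curated transcripts, against 84.4% of all windows. Of the 262 windows above 90% in each mouse, 10 lay that near (3.82%). Read the other way, 0.322% of the CpG-dense windows within 1000 bp of a TSS were fully methylated, 7.88% of those at 1000 to 5000 bp, 23.9% at 5000 to 10000 bp, 30.3% at 10000 to 50000 bp and 31.0% beyond 50000 bp. With windows within 1000 bp of a TSS left out, 23.3% of 1593 exonic windows were fully methylated, compared with 9.48% of 675 intronic and 10.9% of 713 intergenic ones.

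**Figure D2:**
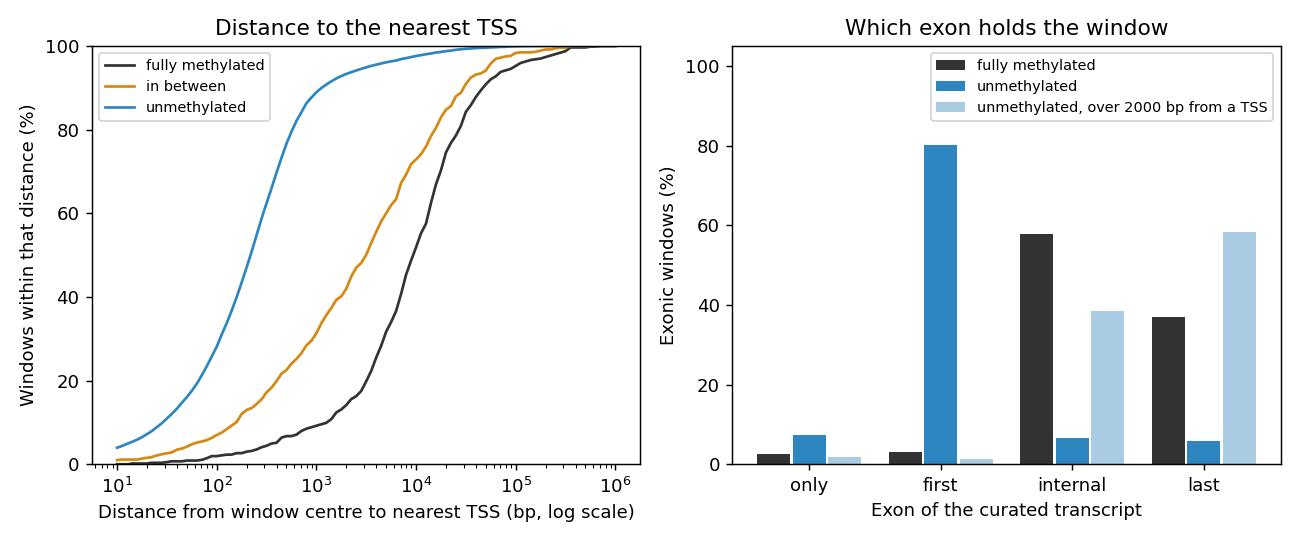
Left, share of windows in percent (vertical axis) whose centre lay within a given distance in bp of the nearest TSS (horizontal axis, log scale), for fully methylated windows, unmethylated windows and windows in between. Right, share in percent of the windows in curated exons by exon position, for fully methylated windows, unmethylated windows and unmethylated windows over 2000 bp from a TSS: internal exons hold 57.7% of the fully methylated windows, and first exons 80.1% of the unmethylated ones.

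The windows were CpG-dense for the assay but poorer in CpGs than the rest. Their median GC content was 59.2% against 65.8% over all windows, and the ratio of observed to expected CpGs had a median of 0.565 against 0.809. By GC content of at least 50% and a ratio over 0.6, 188 windows (33.3%) were like a CpG island, compared with 87.2% of all windows and 79.0% of unmethylated ones over 2000 bp from a TSS. Of windows with a ratio up to 0.4, 35.8% were fully methylated, and of those with a ratio over 1, 0.150%. The share was 7.53% with 16 to 23 common cytosines and 0% with 64 or more. Repeats made up a separate group: 53 windows were soft-masked over at least 50% of their bases, which was 60.9% of the 87 such windows, and 40 of the 53 were intergenic. Their mean methylation ran from 82.9% to 96.3% with a median of 91.6%.

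The windows lay on all 19 autosomes, from 1.22% of the CpG-dense windows of chromosome 16 to 4.37% of those of chromosome 7. They formed 530 runs of adjoining windows, of which 501 were a single window, 25 had 2 windows, 2 had 3 and 2 had 4. A gene could be assigned to 485 windows by a curated transcript that overlaps them or starts within 5000 bp, and these were 430 genes.

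Several genes carried runs of windows in 1 long exon. Zfp865, which encodes a zinc finger protein, had a run of 4 windows with 121 cytosines in an exon of 3217 bp (chr7:5030000-5031999), at means of 90.3% to 93.4%. Bcl11b, a transcription factor of T cells and neurons, had a run of 4 in its last exon (chr12:107915500-107917499). Its window at 107916500 had 33 cytosines and read 86.6% and 91.9% in the Mixed mice and 95.6% and 90.3% in the B6 mice. Plec encodes plectin, a linker of the cytoskeleton, and its 4 windows lay in its last exon of 7412 bp and an internal exon of 3381 bp, at 94.0% to 97.0%. Shroom3, which binds actin and shapes epithelial cells, had 3 adjoining windows with 124 cytosines at 91.3% to 92.9%. Shank2, a scaffold of synapses, had a run of 3 in an exon of 2407 bp at 84.2% to 88.4%. Arhgap23, a GTPase-activating protein, had 3 separate windows in different exons at 86.0% to 88.4%. Dact1 and Pias4 had 2 each.

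Among the windows with most cytosines, Dact1, an antagonist of Wnt signalling, was first with 58 cytosines in the window chr12:71318000-71318499. It read 91.7% and 95.2% in the Mixed mice and 96.0% and 95.3% in the B6 mice. Pias4, a ligase for the protein modifier SUMO, had 54 cytosines at 90%, 89.5%, 85.8% and 88.2% in the same order of mice. Shroom3 had 53 at 91.6%, 92.5%, 93.6% and 93.1%. Neither the Pias4 window nor the Shroom3 window was called by the strain test given further on. Abhd17a, an enzyme that removes palmitate from proteins, had 52 cytosines within 0.680 points over the mice, at 88.9%, 89.5%, 89.4% and 89.6%. The others were Scaf1, Cdh24, Plekhh3, Pard6b, Repin1 and Nfatc2, with 42 to 49 cytosines. Of these, the cell polarity gene Pard6b was lowest, at 80.6% and 82.9% in the Mixed mice and 84.3% and 85.1% in the B6 mice, and Scaf1, which is linked to RNA splicing, was highest, at 94.0%, 96.2%, 95.1% and 95.6%.

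A small set lay on the start of a gene. The window of Rpl39l, a copy of a ribosomal protein gene used in the testis, had its centre 22 bp from the TSS and read 86.7% and 91.1% in the Mixed mice and 90.9% and 89.1% in the B6 mice. Hormad1, which encodes a protein of the meiotic chromosome axis, was 71 bp from it and read 89.6%, 92.7%, 91.3% and 91.2%. Timm8a2, a copy of a mitochondrial import gene, was 76 bp away at 89.8%, 91.2%, 89.8% and 91.0%. Cytosines were read on both sides of each start, though only 3 of them lay after that of Hormad1.

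Naa11, a copy of an amino-terminal acetyltransferase gene, was 80 bp from its TSS and read 83.8% and 81.6% in the Mixed mice and 86.2% and 85.1% in the B6 mice. Hsf5, a heat shock factor of spermatogenesis, had 2 adjoining windows centred 86 and 586 bp from its TSS. The nearer one, with 41 cytosines, read 85.4%, 86.7%, 86.7% and 87.5%. Slc25a31, the ADP/ATP carrier of male germ cells, lay 121 bp before its start at 85.0%, 89.1%, 90.3% and 87.0%. Tnp1, a transition protein that replaces histones in sperm, read 84.7%, 80.9%, 83.1% and 83.8% at 149 bp. The remaining windows of the nearest 10 belonged to the RIKEN and predicted genes 4933428G20Rik, Gm17546 and Gm10863. The first of these starts inside the last exon of Arhgap23, and Gm17546 lies at Ano6, so their windows are also body windows of another gene.

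**Figure D3:**
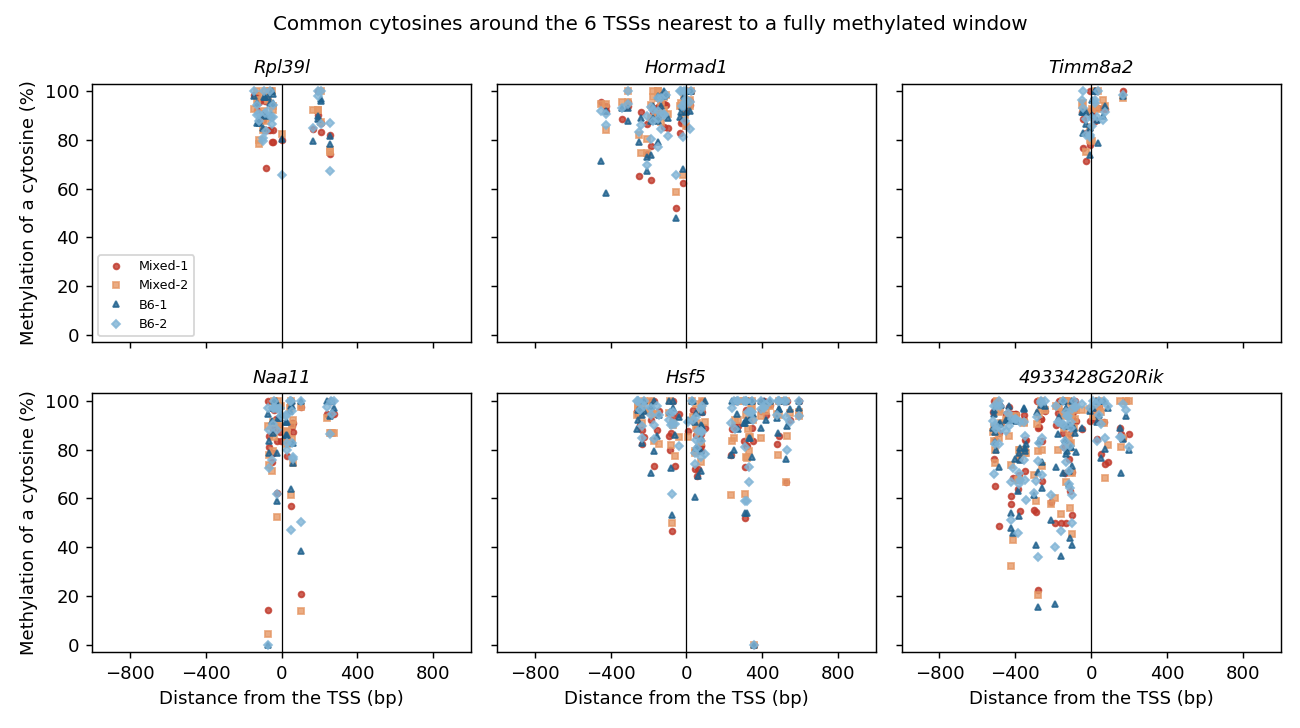
Methylation of each common cytosine in percent (vertical axis) by its distance in bp from the TSS of the 6 genes whose TSS is nearest to a fully methylated window (horizontal axis, negative values before the start), with 1 symbol for each mouse. Cytosines on both sides of the start are largely above 50%, and 1 cytosine of Hsf5 at 355 bp reads 0 in all 4 mice.

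Further genes among the 35 windows near a curated TSS, named after their values were seen, had diverse roles. Sohlh2, a transcription factor of germ cells, read 90% and 91.1% in the Mixed mice and 89.8% and 86.0% in the B6 mice. Spo11, the nuclease that starts meiotic recombination, read 90.8%, 89.3%, 89.1% and 92.0%. Actl7b, an actin-like gene of the testis, read 95%, 94.9%, 94.4% and 94.5%. Cebpe, a transcription factor of granulocytes, was between 88.8% and 90.7%, Krt10, a keratin of the epidermis, between 89.3% and 92.9%, and Lhb, the beta chain of luteinizing hormone, between 90.2% and 93.4%. The window centres of Actl7b, Cebpe, Krt10 and Lhb lay 675, 424, 614 and 804 bp after the TSS. Most of their cytosines were in coding sequence, and the Lhb window was in the last exon. These 4 windows thus do not show a methylated start. Genes used in many tissues were among them too. Chd7, a chromatin remodeller, was at 96.5% and 96.4% in the Mixed mice and 96.2% and 95.9% in the B6 mice. Fnbp1, a membrane-bending protein, was at 90.9%, 91.9%, 89.9% and 91.4%. Both windows also lay in an internal exon of another curated transcript of the same gene. They are thus body windows as well, and do not show a methylated start of every transcript. The 28 bins adjacent to windows near a curated TSS, averaged by window over 20 windows, had a mean of 83.2% ± 1.34 (SD, n = 4).

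RefSeq's promoter table (250 bases before to 50 after the start) held 25 of the 34 genes with a window near a curated TSS. The letters GCGGGA, the core of sites bound by E2F factors, were found on either strand in 7 of these promoters (28%) and in 22.3% of all 25748. The E-box CACGTG was found in 4 (16%) and in 8.11% of all. Both were present in Hormad1, Slc25a31 and Sycp1, and the Hormad1 stretch printed above holds GCGGGA once and CACGTG 2 times. A match is a description of the letters and not a binding site.

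A list of germline genes, picked because methylation is known to silence them, had 10 CpG-dense windows in 8 genes. Of these windows 3 were fully methylated (Hormad1, Slc25a31 and Sycp1), with 1 unmethylated and 6 in between. Methylated windows were thus likely from how the list was made, and its share says nothing of germline genes in general. Over all windows assigned to a gene the fully methylated share was 2.67%, and within 1000 bp of a TSS 0.322%. Sycp1, a protein of the synaptonemal complex, read 83.0% and 88.3% in the Mixed mice and 88.9% and 87.5% in the B6 mice, and its second window, across the start, read 78.5%, 81.6%, 81.6% and 83.1%. Those in between were lower: Mael, a factor of the piRNA pathway, had 76.9%, 72.7%, 77.7% and 71.5%, and Sycp3 had 72.8%, 72.2%, 72.9% and 77.6%. Ddx4, a helicase of germ cells, ran from 61.0% to 69.2% over the mice, a window of Dazl from 57.9% to 59.4%, and Tdrd1 from 44.6% to 51.9%. A list of imprinted genes had 35 CpG-dense windows and 0 that were fully methylated, a count too small to be set apart from that 2.67%.

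Zinc finger genes (symbols starting with Zfp, Zbtb, Zscan or Zkscan) had 34 fully methylated windows of 425 (8%) in 26 genes, beside 2.67% over all windows assigned to a gene. None of the 34 lay within 1000 bp of a curated TSS, 32 were exonic and 26 were in the last exon, where such genes usually encode their array of fingers. Of all 485 fully methylated windows assigned to a gene, 414 were exonic, 149 in the last exon and 35 that near a curated TSS. Being exonic and away from a TSS is thus not particular to zinc finger genes. Named after their values were seen, Zfp334 was at 96.6% and 96.8% in the Mixed mice and 96.0% and 97.1% in the B6 mice, and Zbtb22 at 92.0%, 92.5%, 91.9% and 95.5%. Giant cytoskeletal genes had 6 windows of 31 (19.4%), in Plec, Myh9 and Dnah17, and laminin and basement membrane genes 3 of 14, in Hspg2 and Lamb2. These rest on few genes with long bodies. Ion channel genes had 4 of 180, solute carrier genes 5 of 296 and protocadherin genes 1 of 22. Collagen genes had 0 of 29 and Hox genes 0 of 75, and mucin genes had no CpG-dense window.

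Methylation continued outside the windows. An adjacent bin with at least 1 common cytosine was read on both sides of 107 windows, on 1 side of 267 and on no side of 191. The 481 adjacent bins were averaged first by window and then over the 374 windows concerned, as were the bins at other distances. Their mean methylation was 88.7% and 89.4% in the Mixed mice and 89.6% and 89.2% in the B6 mice. Beside unmethylated windows over 2000 bp from a TSS it was 7.71%, 7.47%, 7.23% and 7.42%. The difference was 81.8 ± 0.570 percentage points (SD, n = 4) and had the same sign in 4 of 4 mice. It is given without a test, because adjacent bins that were themselves classed by their level are included. With the 70 adjacent bins that were themselves fully methylated windows left out, the mean was 89.0% ± 0.343 (SD, n = 4). Beside the unmethylated windows, adjacent bins that were themselves unmethylated windows were not left out. Single bins followed the mean: 385 of the 481 (80%) were above 80% in each mouse and 2 were below 20% in each. These 2, beside windows of the frizzled receptor gene Fzd9 and the fatty acid receptor gene Ffar1, held 4 and 2 cytosines.

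The values came closer with distance. From 500 to 3000 bp, in steps of 500 bp, the mean over mice was 89.2%, 82.1%, 76.0%, 70.3%, 67.3% and 65.7% around fully methylated windows. Around the unmethylated windows it was 7.45%, 18.7%, 26.4%, 28.6%, 26.6% and 26.3%. The SD over mice was at most 0.976 points at any of these distances. The number of bins behind the values fell from 481 at 500 bp to 140 at 3000 bp.

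**Figure D4:**
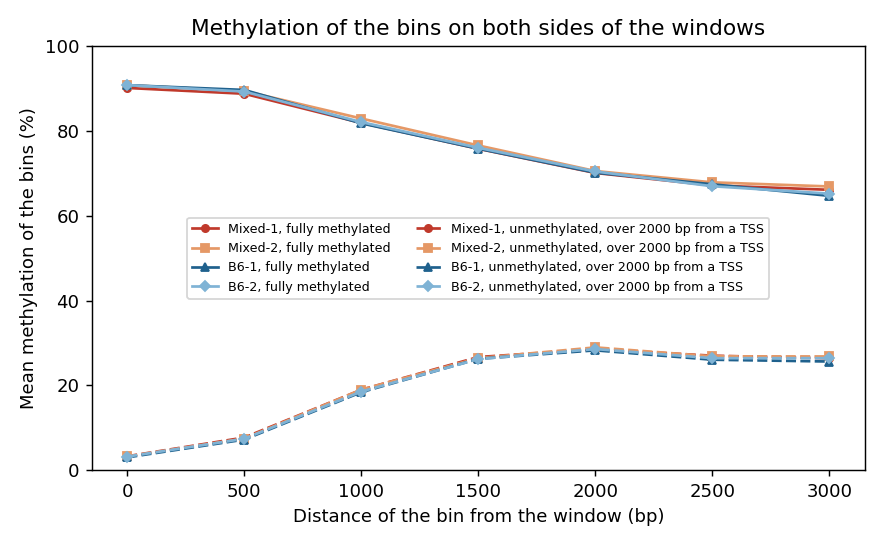
Mean methylation in percent (vertical axis) of the bins at each distance in bp on both sides of a window (horizontal axis, 0 for the window itself), by mouse. Solid lines are fully methylated windows and dashed lines unmethylated windows over 2000 bp from a TSS: at 500 bp they stand at 89.2% and 7.45%, at 3000 bp at 65.7% and 26.3%.

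Most cytosines inside the windows were highly methylated, which the choice by mean level makes likely. Of the 11663 cytosines, 9067 (77.7%) were above 80% in each mouse, 4567 were above 90% and 108 were at 100%. Both strands were read for 2933 of the 8730 CpGs (33.6%), and the strands differed by a median of 4.40 to 4.76 points in a mouse. The lowest cytosines were few: 80 cytosines in 65 windows were below 20% in at least 1 mouse, and 63 cytosines in 53 windows were below 20% in all 4 mice. Where the opposite strand of such a CpG was read, it was above 50% in 64 of 69 cases, so in these the low reading was on 1 strand.

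The low cytosines had a position in common. MspI cuts at CCGG, the ends of the fragments are filled in with cytosines that carry no methylation, and a read that runs to the end of a short fragment reads such a cytosine, whose part in these values was not tested. Of the 63 cytosines below 20% in all mice, 62 lay in a CCGG, and for 61 the next CCGG in the 5′ direction of the same strand was 46 to 50 bases away. There were 166 cytosines at this spacing, in 80 windows, and 61 of them (36.7%) were below 20% in each mouse. Their mean was 36.2% and 35.4% in the Mixed mice and 40.4% and 38.4% in the B6 mice. Cytosines of a CCGG with the next one nearer than 46 bases had means of 92.3%, 92.7%, 91.9% and 92.2%, and 1 of 688 was below 20% in each mouse. With the next CCGG more than 50 bases away, 0 of 2521 were. Aox2 gives an example, where 2 cytosines at this spacing on opposite strands read 0 to 2.86% in every mouse on 28 to 43 reads, and the opposite strand of each read 100% in every mouse. In Tbc1d22a both strands of 1 CpG were between 0 and 3.23%, with a CCGG 47 bases away on either side. The bounds of 46 and 50 bases were set after seeing these values. With the 166 cytosines left out, all 565 windows were still above 80% in each mouse, their means were 90.9%, 91.6%, 91.5% and 91.6%, and 2 cytosines below 20% in each mouse were left.

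**Figure D5:**
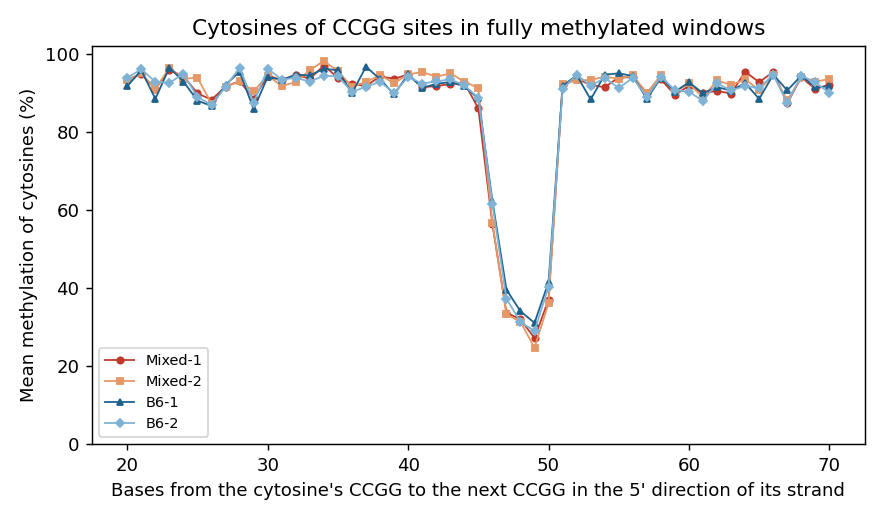
Mean methylation in percent (vertical axis) of the cytosines of CCGG sites in fully methylated windows, by the number of bases to the next CCGG in the 5′ direction of the strand (horizontal axis), with 1 line for each mouse. All 4 mice drop at 46 to 50 bases, to between 24.7% and 31.1% at 49 bases, and stand at 86.0% or above at 45 and at 51 bases.

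Other cytosines were low in single mice. Below 20% in 1 mouse alone were 12 cytosines, 6 and 5 in the Mixed mice and 0 and 1 in the B6 mice. Of these, 3 had the spacing of 46 to 50 bases, 2 in Mixed-2 and the 1 in B6-2, which leaves 6 in Mixed-1 and 3 in Mixed-2. In Ptpn21, a phosphatase gene, both strands of 1 CpG read 0% and 5% in Mixed-1 and at least 96.1% in the other mice, and this window had the widest range of the 565, with 81.4% in Mixed-1 against 94.6%, 95.2% and 95.3%. In Dact1, 2 cytosines at 71318069 and 71318147 read 4.17% and 0% in Mixed-1 and at least 91.7% in the other mice. A cytosine of Upf1, a factor of RNA decay, read 1.47% and 48.7% in the Mixed mice and 96.3% and 96.7% in the B6 mice. One cytosine of Caskin1, a synaptic scaffold, was at 0% in both Mixed mice and at 93.1% and 88.1% in the B6 mice, and 0 cytosines showed the reverse. These genes were named after their values were seen. A base difference of the Mixed background from the reference gives the same reading as a lost methyl group, and the files cannot tell them apart.

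No window was called between the strains by the test across all windows. The mean over the fully methylated windows was 90.4% ± 0.464 (SD, n = 2) in Mixed and 90.8% ± 0.0111 (SD, n = 2) in B6, a difference of -0.336 points, given without a test because the windows were chosen on these levels. It was -0.0241 points without Mixed-1 and -0.669 points without Mixed-2. In a logistic fit to the reads of each window, with the overdispersion moderated by limma and Benjamini-Hochberg adjustment over all 19118 windows, 0 of the 565 windows and 0 of all windows (0%) passed an adjusted p of 0.05. At an unadjusted p under 0.05 there were 56 and 977 windows. Pooling the reads of a strain for Fisher's exact test, which ignores the spread between mice, called 68 of the 565 (12%) and 1122 of all (5.87%), and limma on logit values called 0, with 2 of the 565 and 1200 of all at an unadjusted p under 0.05. The replicate block, with mice paired by number, called 0 as well, with 6 and 130 at that level.

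The lowest unadjusted p of a fully methylated window was that of Slc25a51, a mitochondrial carrier gene (chr4:45399500-45399999, named by this rank after its values were seen). It read 86.9% and 86.2% in the Mixed mice and 95.9% and 95.5% in the B6 mice, a difference of -9.14 points that did not pass (limma-moderated logistic fit, adjusted p = 0.703). Ccer1, a gene of germ cells, read 80.6%, 84.0%, 90% and 90% (adjusted p = 0.881 by the same fit). In both genes the strains did not overlap, but both were picked for their low p. How many of all windows lack overlap was not counted, so this does not set them apart. Since levels above 80% were required in every mouse, no window of the set could differ by more than 20 points, and the choice thus limits these counts and values.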

How the data were processed

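DNA methylation was measured in 4 mouse livers. The authors cut DNA with MspI and converted it with bisulfite, per the labels, and ran 50 cycles of single-end sequencing and mapped the reads to mm10 with BSMAP, per the paper. The paper also describes ERRBS in general as combining MspI with TaqαI, and use of TaqαI here is not stated in the labels. The submitters' processing notes also name Bismark and SAMtools, and versions are not given in the sources used here. The deposited files hold, for each CpG cytosine and strand, the coverage as a read count of at least 10 without normalization, and the percent of reads showing C and showing T. Reads over sites summed to between 60654199 and 99215153 per mouse, with a mean coverage of 44.2 to 63.7, and all 1608037 sites fell on a CpG of the RefSeq GRCm38 reference.

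Cytosines on the 19 autosomes present in all 4 files (1253673) were placed in bins of 500 bp, of which 171787 held at least 1. Exons, coding sequence and TSSs came from RefSeq, with curated transcripts being NM_ and NR_ entries, and distances were taken from the window centre. Named windows were, by rule, the 10 with most cytosines, the 10 nearest to a curated TSS, the 8 genes with most windows, those of the germline and imprinted lists and 3 on either side of the threshold. The windows, gene lists and rules were chosen with earlier results of these data known. Strains were compared by a logistic fit per window of methylated and other reads with dispersion moderated by limma 3.58.1 (R 4.3.3), kept at 1 or above. The fit was also run on simulated data with changes larger than any in the fully methylated windows, which says nothing about smaller differences. Mice are single animals per library. The logistic fit takes account of the spread between them, but its dispersion is drawn in part from other windows. The sign test uses only the direction in each mouse, and Fisher's exact test ignores the spread. The replicate numbers did not pair the mice, with a correlation of their deviations of -0.0327. Alternatives are given in the closing section. Python 3.11.15, pandas 2.3.3, scipy 1.17.1, numpy 2.4.6 and matplotlib 3.10.9 were used.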

Additional observations from a re-analysis of the deposited data

Results flagged for a closer look

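The X chromosome was outside the choice of windows and held the same kind of window. Of 322 windows with at least 16 common cytosines, 12 were above 80% in each mouse and 305 were below 20% in each. The share above 80% was 3.73% (95% exact binomial interval 1.94 to 6.42%), and this interval spans the autosomal share of 2.96%. Adjoining windows and windows of the same gene are counted in it as if separate. The 12 windows were flagged because they lie in data that no comparison used, and they were chosen by the same rule of level. Asmt, the last enzyme of melatonin synthesis, lies in the pseudoautosomal region that X and Y share and had 2 adjoining windows with 54 and 48 cytosines (chrX:170677000-170677999). The first read 94.1% and 95% in the Mixed mice and 95.2% and 96.6% in the B6 mice. Taf7l, a transcription factor of the testis, read 90.5%, 93.2%, 96.3% and 95.1% with the window centre 240 bp from the TSS. Ezhip, an inhibitor of the Polycomb methyltransferase that is expressed in gonads, had 2 windows at 170 and 1170 bp from the TSS, and the nearer read 87.7%, 80.2%, 86.5% and 86.5%.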

How the results depend on the processing

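The number of windows depended on the minimum of cytosines and on coverage. It was 1606 with 12 common cytosines, 117 with 24, 262 above 90%, 341 with a coverage of at least 20, and 3068 with strands merged and at least 8 CpGs. It was 540 to 676 under the other alternatives, and 568 to 613 when any 1 mouse was left out. The exonic share was 62.3% with 12 cytosines, 85.5% with 24, 56.0% with strands merged and 52.7% where every cytosine had to lie in an exon, and 72.1 to 73.2% with each mouse left out. The share near a TSS was 12% with 24 cytosines, 3.82% above 90%, 6.19% by curated transcripts and 14.3% within 2000 bp, and 8.26 to 9.46% with each mouse left out. The difference of adjacent bins stayed positive at 79.4 to 85.0 points in 15 alternatives, and the strain difference negative at -0.669 to -0.0241 in 15. The replicate block left the strain difference at -0.336, and 0 windows were called with it. Fisher's exact test called 1122 windows, 68 of them fully methylated, and the other alternatives 0. Leaving out the cytosines with a CCGG 46 to 50 bases away, an alternative chosen after seeing the data, gave 540 windows, 535 of them shared. Of 42 named windows, 40 stayed within 1 SD with pooled reads, 39 with a coverage of 20 and 37 with strands merged. With 2 mice per strain and coverage of about 40 to 60, only differences well above the spread between mice could pass, and 191 windows had no neighbour read.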

Other observations

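Inside the fully methylated windows lay 789 further cytosines that were read in some mice only and did not enter the choice. Their mean methylation was 89.5% over 308 cytosines and 89.8% over 156 in the Mixed mice, and 91.2% over 622 and 91.8% over 609 in the B6 mice. Of these, 84.1% to 88.2% were above 80% and 0.482% to 1.28% below 20%, on a median coverage of 14 to 22 reads.

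A window of a repeat on chromosome 2 (chr2:98666500-98666999), intergenic and far from Lrrc4c, the nearest gene with a curated transcript, read 86.5% and 84.2% in the Mixed mice and 81.8% and 87.2% in the B6 mice. Its median coverage was 526.5 and 38.5 reads in the Mixed mice and 101.5 and 121 in the B6 mice, and 95.6% of its bases were soft-masked. It was named after its values were seen, and the part of its coverage in its level was not tested.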
